A study of Mus musculus with 8 samples.

Results

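The genes described here belong to the response of cells to interferon-gamma: guanylate-binding proteins (Gbp2, Gbp3, Gbp5), immunity-related GTPases (Irgm1, Igtp), the transcription factor gene Irf1, Cd274, which encodes the ligand PD-L1, and the receptor chain genes Ifngr1 and Ifngr2. The members were chosen by name, and a gene was taken where an array row carried its symbol and no other. That held for 8 of the 9 listed genes, out of 22180 genes measured in this way. Gbp2 shares its row with the closely related Gbp2b, so no level is given for it. Total RNA of hepatic macrophages was measured on 8 Affymetrix arrays. All came from male FVB/N mice, 8 weeks old, with liver injury from 350 mg/kg acetaminophen given into the peritoneum. In 4 samples (rTF) the mice had received 25 µg of recombinant transferrin by tail vein 12 h before acetaminophen, and in 4 samples (rCPS1) 50 µg of recombinant CPS1, a urea cycle enzyme of hepatocytes, so the amount of protein differed along with its kind. The arrays had no mice without acetaminophen among them. Each title begins with the same mouse number, so separate animals are not assured and the p-values reflect no more than how these samples scatter, which may be technical.

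Interferon-gamma is made mainly by T and NK cells and binds a receptor built from the chains IFNGR1 and IFNGR2. The kinases JAK1 and JAK2 bound to the chains then start a signal that reaches gamma-activated sites in DNA and switches on IRF1. IRF1 and related factors bind interferon-stimulated response elements and raise the transcription of many effector genes, among them the GTPases that attack or mark the vacuoles of intracellular pathogens. In macrophages this response is the textbook route of classical activation, and PD-L1, made in the same response, restrains T cells through the receptor PD-1.

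The start regions of the 4 measured GTPase genes and of Irf1 are shown because their letters hold motifs known from this response. The sequences are RefSeq windows of the mouse reference strain (build GRCm38.p6), not of FVB/N. Each runs 5′ to 3′ on the gene's strand from 250 bases before to 50 bases after an annotated start. Capitals mark matches on either strand to the interferon-stimulated response element (ISRE, searched as GAAANNGAAA) or to the gamma-activated site (GAS, searched as TTCNNNGAA). Gbp3 lies at chr3:142559794-142560093 (+ strand), Gbp5 at chr3:142496684-142496983 (+ strand), Irgm1 at chr11:48871371-48871670 (- strand), Igtp at chr11:58199306-58199605 (+ strand) and Irf1 at chr11:53769764-53770063 (+ strand).
Gbp3: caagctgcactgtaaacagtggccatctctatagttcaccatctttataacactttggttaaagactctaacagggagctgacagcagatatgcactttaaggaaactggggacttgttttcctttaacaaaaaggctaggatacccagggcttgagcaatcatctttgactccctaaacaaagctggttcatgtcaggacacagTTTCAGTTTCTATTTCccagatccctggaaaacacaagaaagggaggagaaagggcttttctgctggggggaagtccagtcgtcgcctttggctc
Gbp5: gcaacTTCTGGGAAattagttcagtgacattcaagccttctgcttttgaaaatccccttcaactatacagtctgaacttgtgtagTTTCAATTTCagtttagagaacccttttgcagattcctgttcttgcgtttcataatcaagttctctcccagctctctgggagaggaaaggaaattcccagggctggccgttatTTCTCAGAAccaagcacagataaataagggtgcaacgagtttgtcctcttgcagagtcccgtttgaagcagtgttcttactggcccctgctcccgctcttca
Irgm1: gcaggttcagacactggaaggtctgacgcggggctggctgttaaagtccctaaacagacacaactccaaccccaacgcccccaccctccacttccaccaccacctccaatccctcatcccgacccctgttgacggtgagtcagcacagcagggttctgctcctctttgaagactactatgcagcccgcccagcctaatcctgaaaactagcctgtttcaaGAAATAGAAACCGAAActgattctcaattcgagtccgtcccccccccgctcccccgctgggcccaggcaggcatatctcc
Igtp: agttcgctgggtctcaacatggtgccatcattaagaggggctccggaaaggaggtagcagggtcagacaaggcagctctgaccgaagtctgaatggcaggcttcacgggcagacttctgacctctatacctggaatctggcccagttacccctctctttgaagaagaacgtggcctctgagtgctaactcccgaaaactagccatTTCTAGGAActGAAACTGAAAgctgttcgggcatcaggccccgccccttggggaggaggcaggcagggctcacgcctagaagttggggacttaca
Irf1: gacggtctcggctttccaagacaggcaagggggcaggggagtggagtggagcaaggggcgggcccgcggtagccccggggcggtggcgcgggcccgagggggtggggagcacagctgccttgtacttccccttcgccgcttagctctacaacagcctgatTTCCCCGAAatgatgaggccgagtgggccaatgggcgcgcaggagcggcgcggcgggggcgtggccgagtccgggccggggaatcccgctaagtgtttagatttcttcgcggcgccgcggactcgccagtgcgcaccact

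An ISRE match stood in a window of 5 of the 9 members, which were the GTPase genes Gbp2, Gbp3, Gbp5, Irgm1 and Igtp. Over all 27025 genes with windows of this length, 3.99% held one. The window of Gbp2, whose level was not measured, is not shown, and its ISRE match began at -59. In Irgm1 and in Gbp3 a pair of overlapping matches formed a single run of repeats, with its first base at -30 relative to the start in Irgm1 and at -45 in Gbp3. In Igtp an ISRE match at -34 followed closely on a GAS match at -45. A GAS match stood in windows of 3 members (Gbp5, Igtp and Irf1), against 9.55% of all genes. Irf1 had a GAS match at -90 and no ISRE match, and the windows of Cd274, Ifngr1 and Ifngr2 held neither motif. Gbp3 and Irf1 each have a second annotated window, which held neither motif. In the list of other interferon-induced GTPases used further on, 7 of the 16 listed genes had a window, and 5 of these held an ISRE match. The 5 were Gbp2b, Gbp7, Irgm2, Tgtp1 and Tgtp2. Tgtp1 and Tgtp2 have no array row of their own, so no level is given for them. These matches describe letters only, and binding was not measured.

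The labelled cell type was checked against fixed marker lists before the members were compared. All 12 Kupffer cell and macrophage markers lay above the median array row, with a mean log2 level per array of 9.25 to 9.86 with rTF and 9.34 to 10.06 with rCPS1. Markers of other cells were measured as well, among them all 12 of sinusoidal endothelium (11.06 to 11.35 with rTF, 11.15 to 11.36 with rCPS1) and all 12 of hepatocytes (7.70 to 8.44 and 7.52 to 8.22). Of the 14 T and NK cell markers, whose cells make interferon-gamma, 2 lay below the median row. The T and NK cell mean was 7.07 in rTF replicate 2, 5.88 to 6.13 in the remaining rTF arrays and 5.64 to 6.15 with rCPS1. Infiltrating monocyte markers were at 8.15 to 8.58 with rTF and 7.54 to 7.70 with rCPS1, and neutrophil markers at 5.88 to 6.71 and 4.75 to 5.57. All 8 monocyte and all 10 neutrophil markers were lower with rCPS1. Their list means differed by -0.65 and -1.03 in log2 units, more than the -0.44 of the T and NK cell markers. B cell markers were at 5.38 to 6.26 and 5.38 to 6.56, and dendritic cell markers at 5.93 to 6.50 and 6.0 to 6.08. Because rTF replicate 2 stands apart, results are also given without it. Its part, and that of the monocyte and neutrophil markers, in the differences below was not tested.

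No member passed the test between rCPS1 and rTF. The GTPase, Irf1 and Cd274 means were higher with rCPS1 and the means of both receptor genes were lower, but in each of the 8 members the arrays of the groups overlapped. The fit with limma across all genes gave an adjusted p of 0.98 for each member, and 0 of 22180 genes (0%) passed an adjusted p of 0.05 (smallest 0.862). An unadjusted p under 0.05 was reached by 0 of the 8 members, against 1035 genes (4.67%). With 1 array left out that count was 3 without rTF replicate 4 (Gbp3, Gbp5 and Igtp), 2 without rCPS1 replicate 2 (Gbp3 and Igtp) and 1 without rCPS1 replicate 3 (Igtp). In these fits, in the same order, 4.67%, 4.72% and 4.0% of all genes had such a p. Groups that do not overlap were found in 0 of the 8 members and in 648 of all genes (2.92%). The median log2 difference (rCPS1 minus rTF) was 0.24 over the 8 members and -0.018 over all genes. Of all genes 45.6% were higher with rCPS1, the share beside which counts of higher and lower genes stand. In bulk RNA, fewer cells of a type and less RNA per cell cannot be told apart, here and in what follows.

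**Figure D1:**
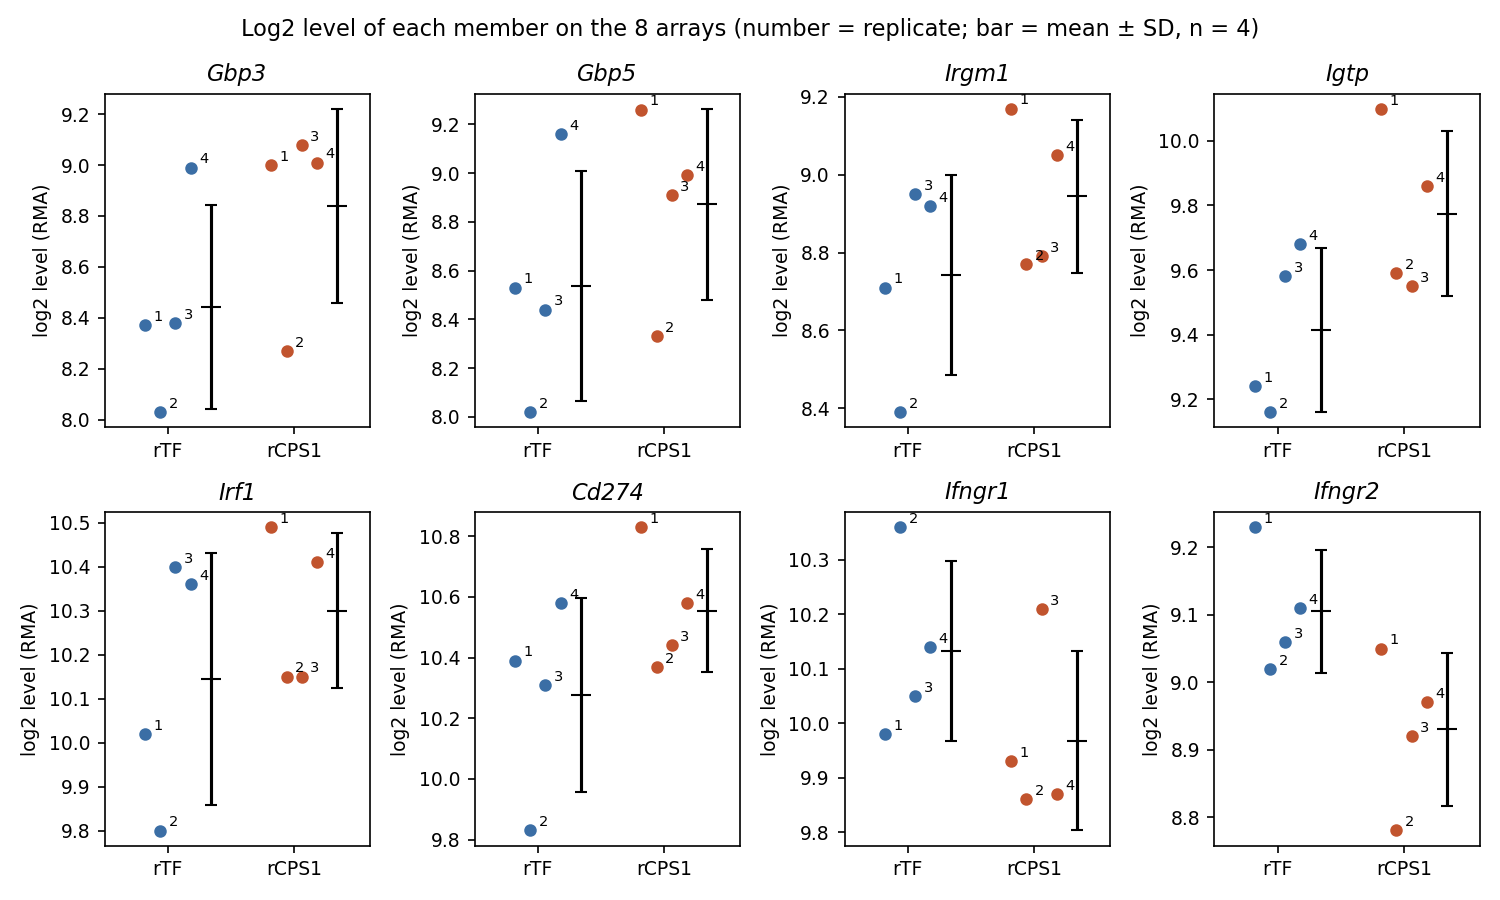
Log2 expression level (RMA, y axis) of each of the 8 members on the rTF (blue) and rCPS1 (orange) arrays, numbered by replicate, with bars for the mean ± SD (n = 4). In every panel the groups overlap, and rTF replicate 2 is the lowest of the 8 arrays for Gbp3, Gbp5, Irgm1, Igtp, Irf1 and Cd274.

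Gbp3 (probe set 17403237) and Gbp5 (probe set 17403205) encode guanylate-binding proteins, large GTPases that assemble on pathogen vacuoles, and GBP5 is also known as a promoter of inflammasome assembly. The log2 level of Gbp3 was 8.37, 8.03, 8.38 and 8.99 in rTF replicates 1 to 4 and 9.0, 8.27, 9.08 and 9.01 in rCPS1 replicates 1 to 4. High levels, at or above 8.99, were thus found on 3 rCPS1 arrays and on rTF replicate 4, and rCPS1 replicate 2 lay among the low rTF arrays. The means were 8.44 ± 0.398 and 8.84 ± 0.379 (SD, n = 4 each), a log2 difference of 0.40 ± 0.23 (SE), or 1.32-fold, with a 95% interval of -0.12 to 0.92 (limma p = 0.118, exact permutation p = 0.286). Gbp5 was at 8.53, 8.02, 8.44 and 9.16 with rTF and 9.26, 8.33, 8.91 and 8.99 with rCPS1. Its arrays fell in a similar order, with rTF replicate 4 second only to rCPS1 replicate 1 and with rCPS1 replicate 2 below rTF replicates 1 and 3. The difference in Gbp5 was 0.33 ± 0.26 (95% interval -0.24 to 0.90, limma p = 0.221, exact permutation p = 0.343). Without rTF replicate 2 the differences were 0.26 ± 0.24 in Gbp3 and 0.16 ± 0.25 in Gbp5, and without rCPS1 replicate 2 they were 0.59 and 0.51. The Gbp genes form a family of similar sequences whose transcripts the array may not fully separate, so their values are uncertain in that respect.

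Irgm1 (probe set 17262202) and Igtp (probe set 17249980, also called Irgm3) encode immunity-related GTPases that sit on the cell's own membranes and keep the effector GTPases of the family in check. Irgm1 was at 8.71, 8.39, 8.95 and 8.92 with rTF and 9.17, 8.77, 8.79 and 9.05 with rCPS1. All 4 rCPS1 arrays lay above the rTF mean of 8.74, but 2 of them lay below rTF replicates 3 and 4. The difference was 0.20 ± 0.16 (95% interval -0.14 to 0.55, limma p = 0.218, exact permutation p = 0.286), and 0.09 ± 0.14 without rTF replicate 2. Igtp had the smallest p among the members. Its level was 9.24, 9.16, 9.58 and 9.68 with rTF and 10.10, 9.59, 9.55 and 9.86 with rCPS1. Again all 4 rCPS1 arrays were above the rTF mean, with 2 above the highest rTF array. The means of Igtp were 9.41 ± 0.252 and 9.77 ± 0.258 (SD, n = 4 each), a difference of 0.36 ± 0.17, or 1.28-fold (95% interval -0.01 to 0.73, limma p = 0.0565, exact permutation p = 0.143). Without rTF replicate 2 it was 0.28 ± 0.17.

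Irf1 (probe set 17249593), the transcription factor that relays the signal to the GTPase genes, differed least of the 8 members. It was at 10.02, 9.80, 10.40 and 10.36 with rTF and 10.49, 10.15, 10.15 and 10.41 with rCPS1. Replicates 3 and 4 of rTF were higher than replicates 2 and 3 of rCPS1, and the low rTF mean came from replicates 1 and 2. The difference was 0.15 ± 0.16 (95% interval -0.20 to 0.51, limma p = 0.356, exact permutation p = 0.371), and 0.04 ± 0.15 without rTF replicate 2. Cd274 (probe set 17358544) was at 10.39, 9.83, 10.31 and 10.58 with rTF and 10.83, 10.37, 10.44 and 10.58 with rCPS1. Here rTF replicate 2 lay well below the other 7 arrays, which ranged from 10.31 to 10.83. The difference was 0.27 ± 0.17 (95% interval -0.11 to 0.66, limma p = 0.147, exact permutation p = 0.229), and 0.12 ± 0.14 without that array.

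The receptor genes lay the other way. Ifngr1 (probe set 17231859), the chain that binds interferon-gamma, was at 9.98, 10.36, 10.05 and 10.14 with rTF and 9.93, 9.86, 10.21 and 9.87 with rCPS1. Below the lowest rTF array lay 3 rCPS1 arrays, whereas rCPS1 replicate 3 was second only to rTF replicate 2. The difference was -0.17 ± 0.13 (95% interval -0.45 to 0.12, limma p = 0.227, exact permutation p = 0.229), and -0.09 ± 0.13 without rTF replicate 2. Ifngr2 (probe set 17327084), the chain that brings JAK2, was at 9.23, 9.02, 9.06 and 9.11 with rTF and 9.05, 8.78, 8.92 and 8.97 with rCPS1. Its arrays varied little, and 1 rCPS1 array, replicate 1, reached into the rTF range. The means of Ifngr2 were 9.10 ± 0.0888 and 8.93 ± 0.112 (SD, n = 4 each), a difference of -0.17 ± 0.11 (95% interval -0.41 to 0.07, limma p = 0.145, exact permutation p = 0.0571). With 4 against 4 the exact p can be no less than 0.0286, and after adjustment over all 22180 genes that of Ifngr2 was 0.993. Without rTF replicate 2 the difference was -0.20 ± 0.11, so for Ifngr2 that array did not enlarge it.

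**Figure D2:**
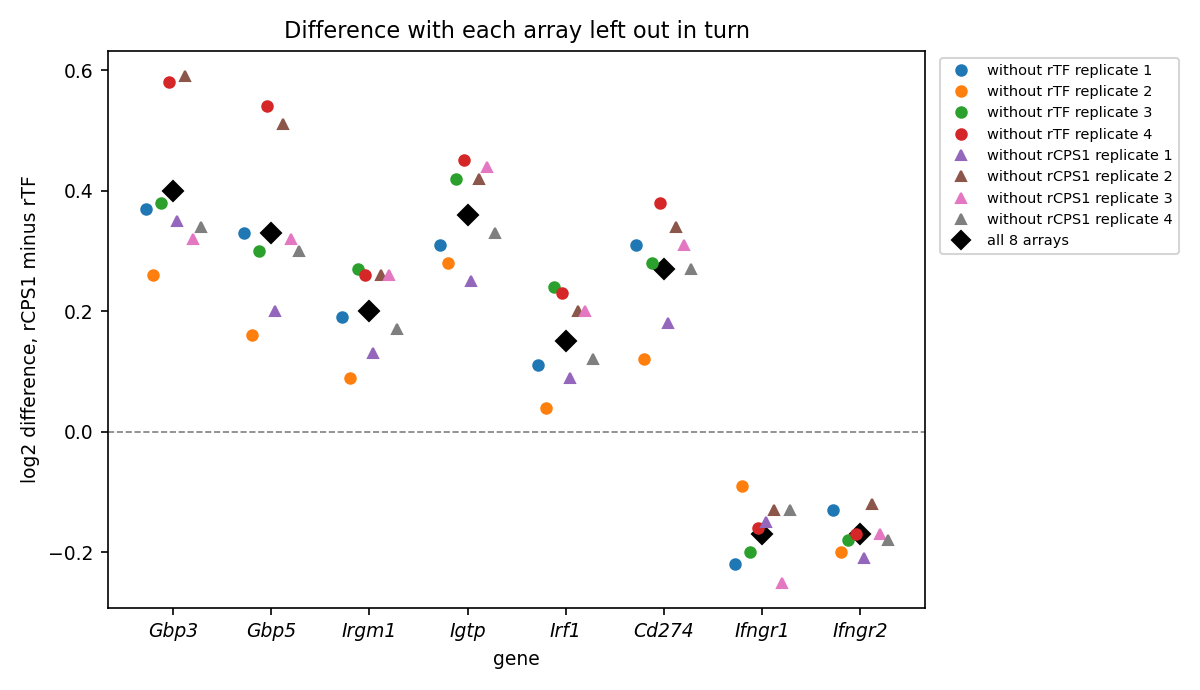
Log2 difference between rCPS1 and rTF (y axis) for each member with all 8 arrays (black diamond) and with each array left out in turn (circles for rTF, triangles for rCPS1 arrays). The sign holds for all 8 members under each omission, and leaving out rTF replicate 2 brings Irf1 to 0.04 and Irgm1 to 0.09.

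The GTPase genes, Irf1 and Cd274 varied together from array to array. The mean log2 level of the 4 measured GTPases was 8.71, 8.40, 8.84 and 9.19 in rTF replicates 1 to 4 and 9.38, 8.74, 9.08 and 9.23 in rCPS1 replicates 1 to 4. All 6 of these genes had their lowest level in rTF replicate 2, the array with the highest T and NK cell marker mean, and 5 of the 6 had their highest in rCPS1 replicate 1. Of all 22180 genes 14.3% had their lowest level in rTF replicate 2 and 9.56% their highest in rCPS1 replicate 1. In the list of other interferon-induced GTPases these shares were 41.7% and 58.3%. Over the 72 measured pathway genes described below, which include that list, they were 40.3% and 25.0%, so the pattern was not limited to the members. Unlike the 6 genes, Ifngr1 had its highest level in rTF replicate 2, as did 4403 of all 22180 genes. Over the 8 arrays, which share the groups and that outlying array, Pearson's r was 0.726 to 0.951 among the 6 pairs of GTPase genes and 0.683 to 0.974 between Irf1 or Cd274 and the GTPases. With each group's mean removed, the same pairs gave 0.615 to 0.947 and 0.625 to 0.978, and without rTF replicate 2 they gave 0.527 to 0.929 and 0.460 to 0.949. Irf1 and Irgm1 were the closest pair (r = 0.974, Spearman's rho = 0.976, and r = 0.949 without rTF replicate 2), followed by Gbp3 and Gbp5, which both lie on chromosome 3 (r = 0.951, rho = 0.762). Against the same 6 genes Ifngr1 gave r of -0.672 to -0.211, -0.574 to 0.0595 with the groups' means removed and -0.295 to 0.373 without rTF replicate 2, so without that array it took no single direction. For Ifngr2 r was -0.205 to 0.162 over all arrays, 0.361 to 0.688 with the groups' means removed and -0.244 to 0.218 without rTF replicate 2. Its r was thus positive with all 6 genes only with the groups' means removed. That value pools both groups, and each group alone was not examined. These correlations describe 8 arrays and carry no test.

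**Figure D3:**
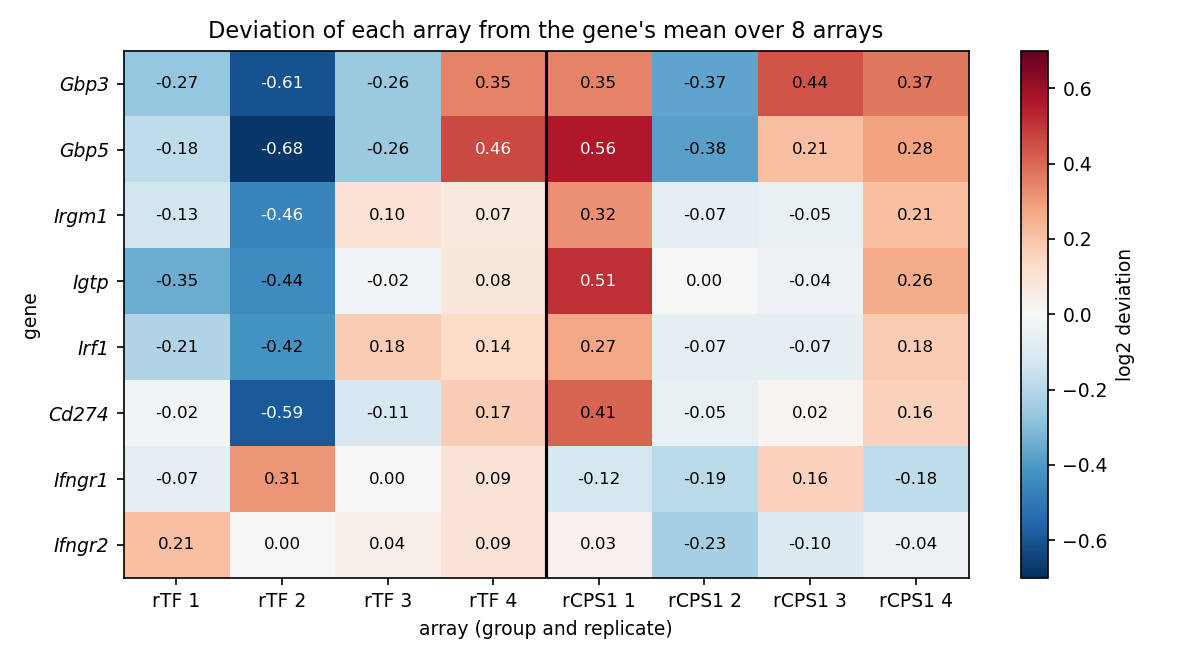
Deviation of each array (x axis, group and replicate) from a gene's own mean over the 8 arrays, in log2 units (colour and printed value), for the 8 members (y axis). The 6 genes from Gbp3 to Cd274 are all below their mean in rTF replicate 2 (-0.68 to -0.42) and all above it in rTF replicate 4, rCPS1 replicate 1 and rCPS1 replicate 4, while Ifngr1 is 0.31 above its mean in rTF replicate 2.

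Genes outside the members with the most similar pattern were sought among 11543 named genes above the median array row. Closest to the GTPase mean over the 8 arrays were Tshz3, a zinc finger gene (r = 0.971), the chemokine gene Cxcl11 (0.963), the glycolysis regulator gene Pfkfb3 (0.957), Ppme1, a phosphatase methylesterase gene (0.956), and the interferon-induced genes Ifit2 (0.953) and Samhd1 (0.951). With the groups' means removed these 6 gave r between 0.938 and 0.970, and without the 2 arrays farthest from the median GTPase mean, rTF replicate 2 and rCPS1 replicate 1, between 0.884 and 0.957. For Irf1 the nearest genes were Flrt1 (r = 0.990), Plekhf1 (0.965) and Ccnj (0.963), and for Cd274 they were Gna13 (0.980), the chemokine gene Cxcl10 (0.974) and Tmem128 (0.963). Without the 2 arrays farthest from the median of the gene in question, r was 0.861 to 0.965 for the neighbours of Irf1 and 0.765 to 0.846 for those of Cd274. The genes nearest to Ifngr1 were Gzmb, the granzyme B gene of cytotoxic lymphocytes (0.980), Myb (0.975) and Sytl2 (0.970). Gzmb is among the T and NK cell markers, so Ifngr1 followed from array to array a gene that also marks those cells. Ifngr2 was nearest to Ephb3 (0.952), Selenbp2 (0.946) and Rnf4 (0.907). Without the 2 farthest arrays r was 0.920 to 0.966 for the neighbours of Ifngr1 and 0.709 to 0.794 for those of Ifngr2. With 8 arrays and 11543 candidates high correlations are common, and 51 genes exceeded 0.9 with the GTPase mean.

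Upstream of the receptor, the genes for interferon-gamma and its inducers were mostly lower with rCPS1. Ifng itself was at 5.92, 6.69, 5.63 and 6.22 with rTF and 5.92, 5.05, 5.59 and 5.77 with rCPS1. Thus 2 rCPS1 arrays lay below every rTF array. The highest level was again in rTF replicate 2, as in 4403 of all 22180 genes. The difference was -0.53 ± 0.25 (SE; limma p = 0.0576, exact permutation p = 0.143), and -0.34 without that array. Of the 8 genes in this list 7 were lower and 1 higher, where 45.6% of all genes were higher. Their median log2 difference was -0.23, and 0 had an unadjusted p under 0.05. Il18rap, a chain of the interleukin 18 receptor, differed by -0.33 ± 0.19 and Il12a, which encodes a subunit of interleukin 12, by -0.29 ± 0.18. T and NK cell markers, which include no gene of this list, were lower in 13 of 14 cases, and their mean differed by -0.44, or -0.17 without rTF replicate 2.

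Between the receptor and its target genes, Batf2 was the only measured gene of the signalling, inhibitor and regulatory factor lists with an unadjusted p under 0.05. All 4 measured genes of JAK-STAT signalling were higher with rCPS1 (median 0.17), among them Stat2 (0.25 ± 0.15), a factor of type I interferon signalling, Jak2 (0.20 ± 0.15) and Stat3 (0.13 ± 0.14). Of 7 inhibitors of the signalling 5 were higher and 2 lower (median 0.02), with the phosphatase gene Ptpn2 at -0.12 ± 0.11, the ligase gene Pias1 at 0.12 ± 0.11 and Socs1, the feedback inhibitor of JAK kinases, at 0.20 ± 0.20. Of 7 interferon regulatory factors and coactivators 6 were higher (median 0.08). An unadjusted p under 0.05 was found for 1 of them, Batf2, against 4.67% of all genes. Batf2, a leucine zipper factor that acts with IRF1 in macrophages, was at 8.72, 7.67, 8.79 and 8.68 with rTF and 9.21, 8.81, 8.80 and 9.34 with rCPS1. Each rCPS1 array was above every rTF array, though rCPS1 replicates 2 and 3 only narrowly above rTF replicate 3. Of all genes 2.92% had groups that did not overlap. The difference was 0.57 ± 0.25 (limma p = 0.0452, exact permutation p = 0.0286, adjusted limma p = 0.98), and 0.31 without rTF replicate 2, where the unadjusted p was no longer under 0.05. Nlrc5, which switches on MHC class I genes, differed by 0.38 ± 0.27 and Irf2 by 0.11 ± 0.12.

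Of the 12 genes measured in the list of other interferon-induced GTPases, 9 were higher with rCPS1 and 3 lower. Their median log2 difference was 0.42, and none passed over all genes. An unadjusted p under 0.05 was found for 5 of the 12, all higher. Of all genes 4.67% had such a p in either direction, and 1.88% were higher with such a p. The 5 were Gbp10, Gbp7, Gbp4, Iigp1 and Irgm2. Gbp10 was at 9.62, 9.37, 9.61 and 9.93 with rTF and 10.09, 10.04, 10.01 and 10.56 with rCPS1, and Gbp7 at 10.44, 10.41, 10.52 and 10.64 with rTF and 11.24, 10.69, 10.71 and 11.15 with rCPS1. In both genes the groups did not overlap. Their differences were 0.54 ± 0.16 (limma p = 0.00738) and 0.45 ± 0.15 (limma p = 0.0142), with an exact permutation p of 0.0286 and an adjusted limma p of 0.98 for each. Gbp4 was at 8.42, 8.34, 9.0 and 9.30 with rTF and 9.60, 9.02, 9.59 and 9.51 with rCPS1, a difference of 0.67 ± 0.23 (limma p = 0.0153, exact permutation p = 0.0571), with rCPS1 replicate 2 inside the rTF range. The differences in Iigp1 and Irgm2, chosen after their values were seen, were 0.42 ± 0.17 and 0.41 ± 0.17. The lower genes were Irgq (-0.35 ± 0.16), Irgc1 (-0.12 ± 0.12) and Gbp6 (-0.09 ± 0.15), also named after their values were seen. Irgc1 and Gbp6, with mean levels of 2.16 and 2.50, lay below the median array row of 3.603. Irgq and Irgc1 belong to the list by family name, and their induction by interferon was not tested. Without rTF replicate 2 the median of the 12 was 0.32 and 4 had an unadjusted p under 0.05, against 4.14% of all genes in that fit. These were Gbp10 (0.46), Gbp7 (0.42), Gbp4 (0.53) and Gbp2b (0.58), the last not among the 5 before and named after its value was seen. Iigp1 and Irgm2 each stood at 0.26 there and no longer had such a p. Leaving out rCPS1 replicate 3 or rCPS1 replicate 4 left 3 such genes, against 4.0% and 4.31% of all genes in those fits.

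**Figure D4:**
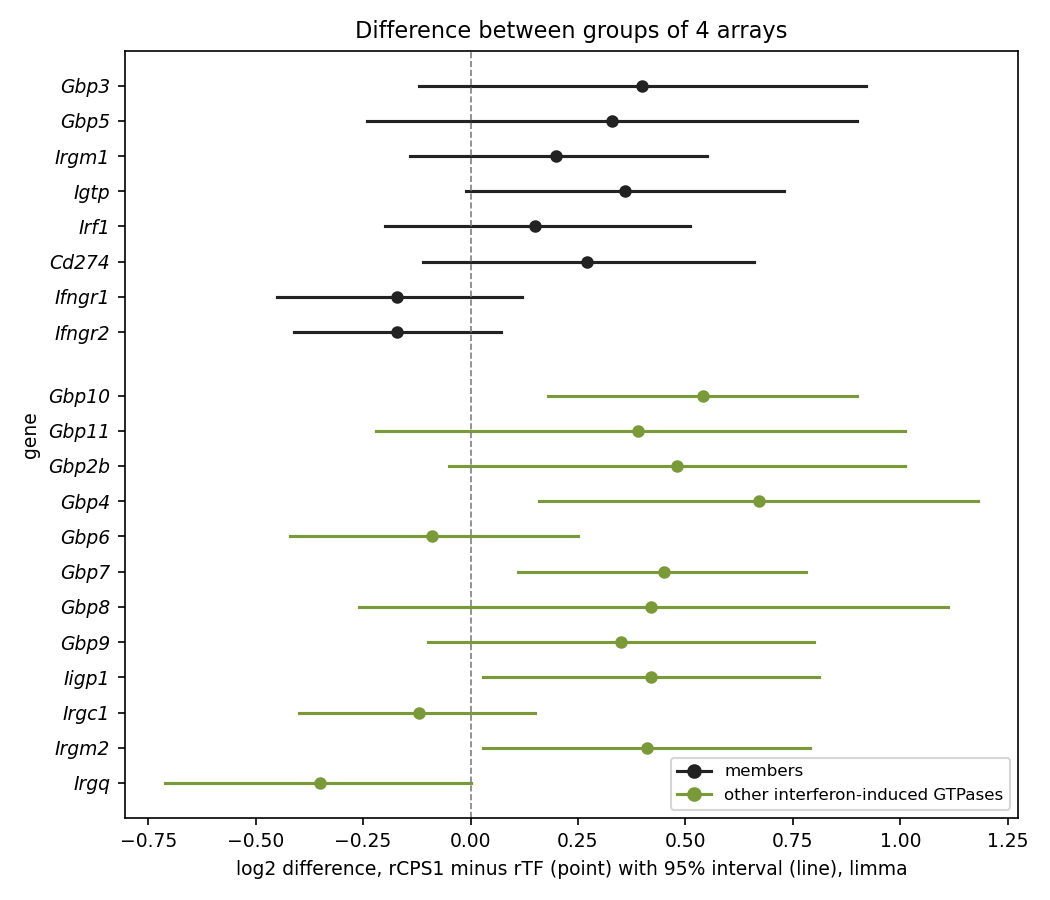
Log2 difference between rCPS1 and rTF (x axis, point) with its 95% interval from limma (line). Shown are the 8 members (black) and the 12 genes measured in the list of other interferon-induced GTPases (green). The intervals of all 8 members include 0, and those of Gbp10, Gbp7, Gbp4, Iigp1 and Irgm2 lie above it.

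Other effectors and targets were split, with 19 of 34 higher and 15 lower (median 0.03), and 3 had an unadjusted p under 0.05. Wars, a tRNA synthetase gene induced by interferon-gamma, differed by 0.47 ± 0.19 (limma p = 0.0319, exact permutation p = 0.114) and Tap2, a subunit of the peptide transporter for MHC class I, by 0.28 ± 0.12 (limma p = 0.0394, exact permutation p = 0.0571). Without rTF replicate 2 neither had an unadjusted p under 0.05, with Wars at 0.41 and Tap2 at 0.27. Ccl5, a chemokine that T and NK cells also make, was at 10.41, 10.07, 10.05 and 10.11 with rTF and 9.83, 9.83, 9.82 and 9.89 with rCPS1. All 4 rCPS1 arrays lay below all rTF arrays, with a difference of -0.32 ± 0.11 (limma p = 0.0192, exact permutation p = 0.0286), and -0.35 without rTF replicate 2. Over the 72 measured pathway genes 44 were higher and 28 lower, where 45.6% of all genes were higher. Unadjusted p values under 0.05 were found for 9 of them, of which 8 were higher and 1, Ccl5, lower, 4 had groups that did not overlap (2.92% of all genes did so), and 0 passed over all genes. The share with an unadjusted p under 0.05 was 12.5%, against 4.67% of all genes. It was 8.33% (6 genes) against 4.14% without rTF replicate 2, and 5.56% (4 genes) against 4.31% without rCPS1 replicate 4, which is near the level of all genes.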

How the data were processed

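The authors deposited log2 expression levels made with RMA, and limma is also named, per the submitters' processing notes, which give no versions. RMA gives all arrays a common distribution, so a shift shared by nearly all genes is not visible. RNA was extracted by a Qiagen RNeasy protocol and 400 ng was labelled with a WT Plus kit, per the labels' protocols. How macrophages were isolated, when, and the array's genome build are not given in the sources used here. Of 41345 rows, 23521 carried 1 gene symbol in the platform annotation, 1814 several and 16010 none. For a gene with several rows the row of highest mean was used, which gave 22180 genes. No filter on dim rows was applied. By Entrez ID 21994 genes matched RefSeq and 0 symbols changed. Array medians were 3.55 to 3.68, and precision is limited by having 4 arrays a group. Levels of different genes were not compared.

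Groups and replicate numbers came from the titles. limma 3.58.1 in R 4.3.3 (lmFit, eBayes, two-sided, no covariate) was fitted across all genes with Benjamini-Hochberg adjustment at 0.05, and tested on simulated data. Exact permutation tests over the 70 assignments of arrays were two-sided and adjusted over 22180 genes. Alternatives were a filter on dim rows, trended or robust variance, array weights, quantile normalization, the mean of a gene's rows, the replicate number as a block and each array left out. The members and lists were chosen with earlier results of these data known. The genes named are the members, up to 3 of smallest p in each pathway list and those of most similar pattern, and any other is marked as picked with its value in view. Of 81 pathway genes 72 were measured on rows of their own. The GTPase mean, planned over 5 members, rests on 4 because Gbp2 has no row of its own.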

Additional observations from a re-analysis of the deposited data

Results flagged for a closer look

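For 44 of the genes named, Dixon's ratio compared the extreme arrays of a group with their nearest neighbour. An array stood apart in 5 of 88 groups, against 4.4 expected by chance at 1 in 20. Gbp3 was at 8.27 in rCPS1 replicate 2, where the other rCPS1 arrays were at 9.0 to 9.08, and Gbp4 was at 9.02 in the same array (others 9.51 to 9.60). Batf2 was at 7.67 in rTF replicate 2 (others 8.68 to 8.79). In rCPS1 replicate 4, Gbp10 was at 10.56 (others 10.01 to 10.09) and Ccl5 at 9.89 (others 9.82 to 9.83).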

How the results depend on the processing

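Each of the 8 member differences kept its sign under all 15 alternatives, and none passed an adjusted p of 0.05 (lowest 0.902). Their sizes moved more: with array weights Gbp3 was at 0.23 (0.40 without weights), Gbp5 at 0.16 (0.33) and Irf1 at 0.08 (0.15). With 1 array left out Gbp5 ran from 0.16 to 0.54, Irgm1 from 0.09 to 0.27, Irf1 from 0.04 to 0.24, Cd274 from 0.12 to 0.38 and Ifngr1 from -0.25 to -0.09, in each case nearest to 0 without rTF replicate 2. The count of all genes past the threshold was 0 under every alternative, with smallest adjusted p values of 0.246 to 0.999. The number of members with an unadjusted p under 0.05 was 0 with all arrays, 1 with a variance trend, 1 with quantile normalization (Igtp in both) and 0 to 3 with 1 array left out. The highest counts came without rTF replicate 4 (3) and without rCPS1 replicate 2 (2), and it was 1 without rCPS1 replicate 3. With the replicate number as a block it was 1 (Gbp3) and the pathway genes with such a p numbered 14, against 9 without the block. The 14 were 19.4% of the pathway genes, against 4.5% of all genes in that fit. Over all genes the same-numbered arrays did not deviate together (r = -0.124 to 0.0251), and arrays of different numbers gave r of -0.158 to 0.194. Whether arrays of the same number were handled together was not tested. With 1 array left out the pathway count ran from 4 (without rCPS1 replicate 4) to 11. The count in the list of other interferon-induced GTPases ran from 3 to 7, against 5, and with array weights it was 3. This GTPase count was added after seeing the data. Over all genes the share with such a p was 4.0% to 5.59% with 1 array left out. It was 5.27% with array weights, 4.37% with a variance trend and 4.68% with quantile normalization. The cause of these shifts was not tested.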
